A study of Rattus norvegicus with 49 samples.

Results

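The livers of rats given the 3 lowest doses of propylene glycol phenyl ether, a glycol ether used as a solvent, were set against the livers of rats given vehicle alone. The comparison holds 12 arrays at 1, 10 and 100 mg/kg (4 at each dose), chosen by the organ and dose in their titles, and 5 arrays at 0 mg/kg. They are 17 of the 49 arrays of the study, which also covers liver at 500 and 1000 mg/kg and kidney. All animals were male rats of the outbred Harlan Sprague Dawley stock, kept 5 to a cage on NTP-2000 diet and 6 to 8 weeks old when assigned to groups. Each was dosed by gavage in corn oil at 5 mL/kg, on 5 consecutive days, and killed a day after the last dose. The vehicle group received the corn oil without the compound. Groups at 500 and 1000 mg/kg, with 4 liver arrays each, were treated in the same way and enter the model to estimate the spread. The protocol text names a different agent, MCHM, from the title and the sample labels, which are followed here. One array was hybridized per tissue sample, and the labels describe the samples as biological replicates.

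Expression is given as log2 values for 14217 genes, so that a difference of 1 is a doubling of the signal. Each gene is represented by a single probe set, and the levels of different genes cannot be set against each other. A gene was called where its Benjamini-Hochberg adjusted p, over all 14217 genes in limma, was under 0.05. The 17 arrays correlated pairwise at 0.987 to 0.995 across genes. The mean level of 11 hepatocyte markers such as albumin lay between 12.60 and 12.95 in low-dose livers and between 12.72 and 12.91 at 0 mg/kg. The mean of 7 kidney tubule markers lay between 4.19 and 4.55 in low-dose livers and between 4.27 and 4.60 at 0 mg/kg. The same tubule markers averaged 11.8 to 12.2 in the kidney arrays of the study. Precision is limited by the number of arrays: the median 95% interval reached 0.188 log2 units to either side of the pooled difference.

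The liver detoxifies foreign compounds by oxidising them and then attaching groups such as glutathione. Glutathione transferases carry out that coupling. Many of them, with quinone reductase Nqo1 and glutathione reductase Gsr, are switched on by the transcription factor NRF2 when electrophiles or oxidants modify its inhibitor KEAP1. NRF2 binds a short DNA element, the antioxidant response element, in or near its targets.

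A single gene was called in the pooled comparison, which is 0.00703% of the genes tested. Gstt3, a theta class glutathione transferase, rose 1.82-fold in low-dose livers. Its level averaged 9.92 ± 0.30 (SD, n = 12) at the low doses and 9.06 ± 0.20 (SD, n = 5) at 0 mg/kg. The log2 difference was 0.86 (SE 0.12, 95% interval 0.61 to 1.12), with a limma adjusted p of 0.00532. In bulk tissue, a change in the number of cells of a type and a change in RNA per cell cannot be told apart.

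The Gstt3 arrays by dose show the shape of that difference. The 5 arrays at 0 mg/kg read 8.94, 9.30, 9.23, 8.83 and 8.99. The 4 livers at 1 mg/kg read 10.00, 10.10, 9.97 and 9.52, the 4 at 10 mg/kg read 10.16, 9.95, 10.46 and 9.84, and the 4 at 100 mg/kg read 9.89, 9.52, 9.49 and 10.18. The groups did not overlap: each of the 12 low-dose arrays lay above every array at 0 mg/kg. The low doses overlapped one another, and the lowest low-dose reading came from a 100 mg/kg liver. Against 0 mg/kg the difference was 0.84, 1.04 and 0.71 at the doses 1, 10 and 100 mg/kg (limma adjusted p = 0.153, 0.0104 and 0.280), and these share the same 5 control arrays. Among the low doses Gstt3 gave an unadjusted F test p of 0.142, and 100 minus 10 mg/kg was -0.33 with an interval of -0.67 to 0.00. At 500 and 1000 mg/kg the Gstt3 differences from 0 mg/kg were 1.28 and 1.88. Livers at 1000 mg/kg stood 1.02 (SE 0.13) above the pooled low doses in Gstt3 (limma adjusted p = 0.000231). The controls are not part of that difference and enter only its estimate of spread.

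**Figure D1:**
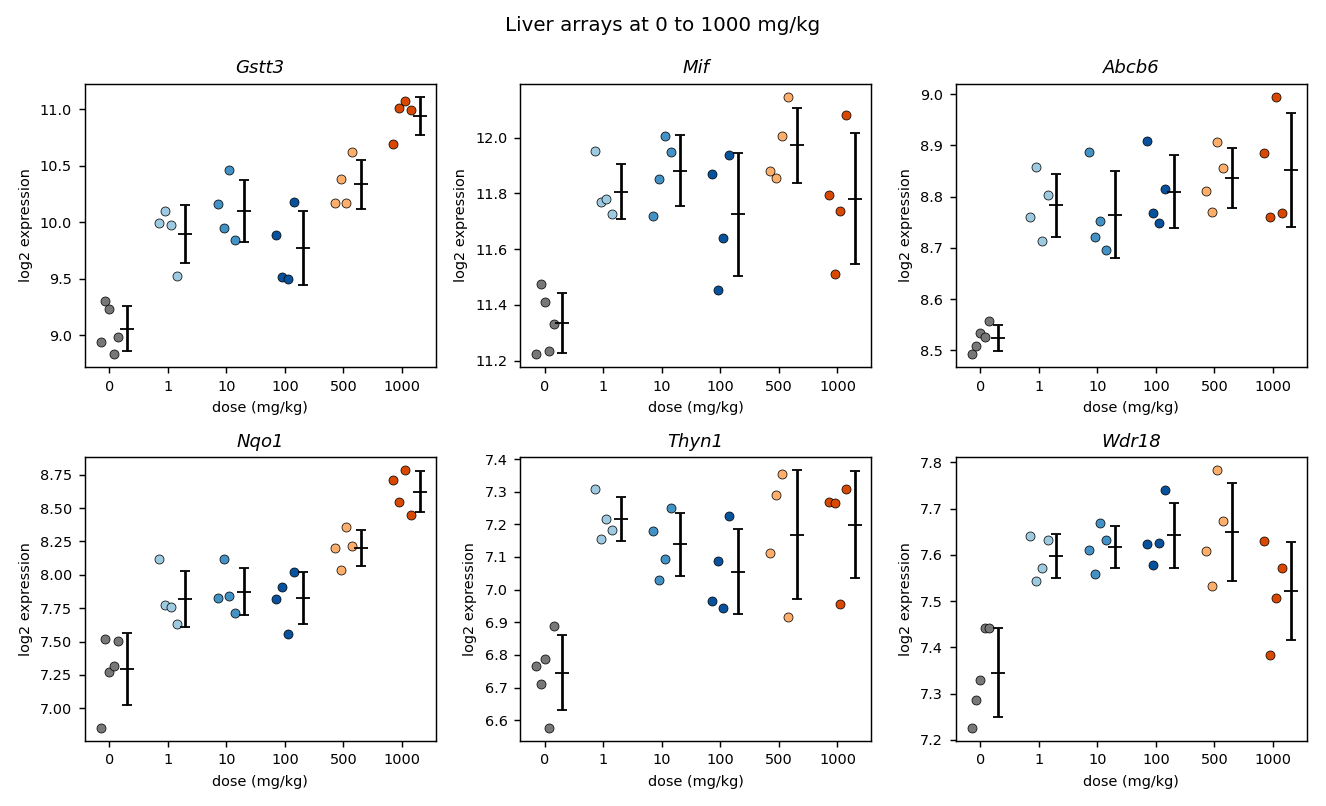
Log2 expression (vertical axis) of Gstt3, Mif, Abcb6, Nqo1, Thyn1 and Wdr18 in each of the 25 liver arrays by dose in mg/kg (horizontal axis, equally spaced groups). Points are arrays, and the bar beside each group is its mean with SD. For Gstt3 the low doses lie between 9.49 and 10.46 and the controls between 8.83 and 9.30, and only Gstt3 was called in the pooled comparison.

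The Gstt3 call did not hold under every setting. It was kept when any 1 of the 17 arrays was left out (difference 0.81 to 0.93, limma adjusted p = 0.00160 to 0.0480). It was lost under 4 alternatives, among them the 17 arrays fitted alone (adjusted p = 0.0546), the pool without the 10 mg/kg group (difference 0.77, adjusted p = 0.0773), and the Bmal1 minus Nr1d1 level of each array as a covariate, which was added after the clock values below were seen (difference 0.74, adjusted p = 0.128). That covariate may also remove part of an effect of dose, because both of its genes differed on average between the groups. In kidney Gstt3 was also higher at the pooled low doses, by 0.15, at 11.60 against 11.46 on average. Its limma p there was 0.009 unadjusted and 0.630 adjusted. The pooled kidney comparison called 0 genes with limma, with 1002 (7.05%) at an unadjusted p under 0.05. The liver minus kidney difference in Gstt3 was 0.72 (95% interval 0.44 to 0.99) and was not called (limma adjusted p = 0.0598). That comparison of organs was also added after the data were seen, and 0 genes were called in it, with 1555 (10.9%) at an unadjusted p under 0.05.

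Promoters are shown for 3 genes, Gstt3 as the called gene and the other 2 as examples picked because they hold a motif, each as the 250 bases before the RefSeq start in GRCr8, 5′ to 3′ on the gene's strand. The Gstt3 window is chr20:12874368-12874617 on the plus strand, and that of Gsta3, a glutathione transferase among the NRF2 targets below, is chr9:31154739-31154988 on the plus strand, the first of 2 entries. The Nr1d1 window, of a clock repressor described below, is chr10:84229455-84229704 on the minus strand, the second of 2 entries. Capitals mark TGACNNNGC, the core of the antioxidant response element, in Gsta3, and CACGTG, the E-box, in Nr1d1.
Gstt3: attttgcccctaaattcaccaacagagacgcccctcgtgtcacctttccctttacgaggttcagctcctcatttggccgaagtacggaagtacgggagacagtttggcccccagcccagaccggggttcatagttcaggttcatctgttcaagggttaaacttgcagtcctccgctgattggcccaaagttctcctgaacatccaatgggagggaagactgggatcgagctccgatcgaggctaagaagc
Gsta3: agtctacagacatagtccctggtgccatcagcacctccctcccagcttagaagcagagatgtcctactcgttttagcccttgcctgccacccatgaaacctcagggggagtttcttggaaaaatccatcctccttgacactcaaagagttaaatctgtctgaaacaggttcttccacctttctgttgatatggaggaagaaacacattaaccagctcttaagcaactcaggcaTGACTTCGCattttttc
Nr1d1: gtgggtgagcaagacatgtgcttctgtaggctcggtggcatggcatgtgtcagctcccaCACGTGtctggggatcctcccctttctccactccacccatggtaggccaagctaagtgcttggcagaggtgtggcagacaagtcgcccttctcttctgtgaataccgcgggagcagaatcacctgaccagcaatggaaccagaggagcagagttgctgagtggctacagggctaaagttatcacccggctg
The element of Gsta3 lies 17 to 9 bases before the start and that of Nr1d1 191 to 186 bases before it, and neither motif is in the windows of Gstt3 and Nqo1 or in the other entries of Gsta3 and Nr1d1. These genes and motifs were picked after matches had been seen in a wider search, which covered 6 motifs on both strands in 21 promoters of 19 genes described here. TGACNNNGC was in 4 of the 21 (19.0%), for Chpf2, Gsta3, Mif and Psmb5, and in 10.1% of all 33469 promoters of the table. With a further A at its end, which makes it a subset of the first, it was in 4.76% of the 21 and 2.42% of all. CACGTG was in 2 (9.52%), for Abcb6 and Nr1d1, and in 5.59% of all promoters. The related CACGTT was in 9.52% of the 21 and 4.07% of all. GCGTG, the core bound by the aryl hydrocarbon receptor, was in 52.4% of the 21 and 25.9% of all. AGGTCA, a nuclear receptor half-site, was in 14.3% of the 21 and 14.1% of all. A match is a description of the letters and not of binding. Bases outside the 250 were not searched, so a window without a match does not show that the gene lacks the element.

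Behind Gstt3, 9 genes had the smallest p among those higher at the low doses, and none of them passed in the main fit. Other settings moved the calls. A variance trend called 16 genes, among them Mif, Abcb6, Nqo1, Thyn1, Wdr18, Chpf2, Noc2l and Ndufa5, and the 17 arrays alone called 0. Among the 7109 genes at or above the median level 72 were called, Nqo1, Gsr and Psmb5 with them. Mif, a cytokine, reached 11.45, 11.82 and 12.01 (lowest, median and highest of 12) in low-dose livers, against 11.22, 11.47, 11.41, 11.24 and 11.33 at 0 mg/kg. One low-dose array, at 100 mg/kg, lay within the range of the controls. The Mif difference was 0.47 (SE 0.08, limma adjusted p = 0.0512). Nqo1 read 7.56, 7.82 and 8.12 in low-dose livers and 6.85, 7.52, 7.27, 7.32 and 7.51 at 0 mg/kg, with no overlap and a difference of 0.55 (SE 0.10, adjusted p = 0.0512). Abcb6, a transporter of porphyrins, read 8.70, 8.76 and 8.91 in low-dose livers and 8.49, 8.51, 8.53, 8.53 and 8.56 at 0 mg/kg. Its difference was only 0.26 (SE 0.05, adjusted p = 0.0512). The controls of Abcb6 had an SD of 0.025 and the groups did not overlap, as in 51 (0.359%) of all genes. A small p, by which the genes here were picked, already reflects such a separation.

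Thyn1, a nuclear protein named from thymocytes, differed by 0.39, and Wdr18, a factor in ribosomal RNA processing, by 0.27, both without overlap and with a limma adjusted p of 0.0512. Chpf2, an enzyme of chondroitin synthesis, differed by 0.28 (0.0512), but its other 2 probe sets differed by -0.03 each. Noc2l, a nucleolar protein, differed by 0.38 (adjusted p = 0.0647), Ndufa5, a subunit of respiratory complex I, by 0.27 and Nicn1, a partner of tubulin-modifying enzymes, by 0.29 (both 0.0816).

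The 10 genes with the smallest p among those lower at the low doses were mostly dim, averaging 2.96 to 4.94 in low-dose livers for 9 of the 10, where a signal holds an unknown share of background. Dpf1, a chromatin protein of neurons, read 4.24, 4.36 and 4.52 in low-dose livers and between 4.53 and 4.66 at 0 mg/kg, a difference of -0.23 (SE 0.05, limma adjusted p = 0.0816). P2rx6, a subunit of ATP-gated channels, was the other gene of the 10 without overlap, at 3.22, 3.35 and 3.62 in low-dose livers and between 3.63 and 3.79 at 0 mg/kg (difference -0.34). Treml1, a platelet receptor, had the largest of the 10 differences at -0.44. Cacna1c, a calcium channel, differed by -0.40, Zic4, a transcription factor, by -0.38, Galr2, a galanin receptor, by -0.35, Vsig10l by -0.33 and Klhl13, a ubiquitin ligase adaptor read at 6.37 on average in low-dose livers, by -0.31 (adjusted p = 0.0816 for each). Epha6, an ephrin receptor, and Slc22a3, an organic cation transporter, stood at -0.40 and -0.37 (adjusted p = 0.101 for both). Other probe sets of Vsig10l, Cacna1c and Galr2 gave 0.23, 0.11 and 0.01, while that of Zic4 gave -0.16.

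**Figure D2:**
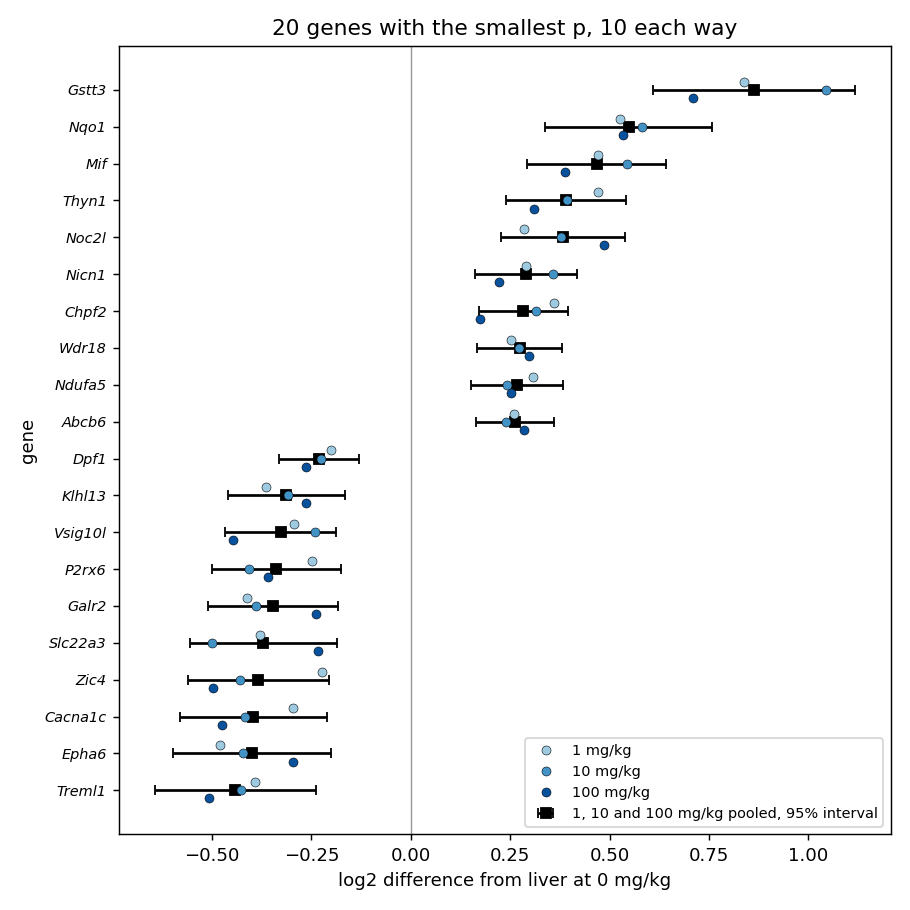
Log2 difference from liver at 0 mg/kg (horizontal axis) of the 20 genes with the smallest p, 10 higher and 10 lower (vertical axis). Squares with bars are the pooled low doses with the 95% interval, and circles are the 3 doses. All 20 genes have the same sign at each dose, which their choice by the pooled p largely builds in. Gstt3, at 0.86, is the only one called.

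Of these 20 genes, Gstt3 and Nqo1 differed further between 1000 mg/kg and the pooled low doses, with Nqo1 0.78 (SE 0.11) higher at 1000 mg/kg (limma adjusted p = 0.000732). Galr2 was 0.40 (SE 0.09) higher at 1000 mg/kg than at the low doses (limma adjusted p = 0.0275). Its average was 4.72 at 1000 mg/kg and 4.66 at 0 mg/kg. Galr2 was picked for low readings at the low doses, and that choice tends to raise this difference. The other 17 did not pass in that contrast, in which 81 genes (0.570%) were called. For Mif the difference between 1000 mg/kg and the low doses was -0.02 (SE 0.09) and for Abcb6 0.07 (SE 0.05).

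Beyond the lead genes, many small differences stood on one side. At an unadjusted p under 0.05 there were 1798 genes (12.6%), 1240 higher (8.72%) and 558 lower (3.92%). At an adjusted p under 0.1 there were 48 genes (0.338%), 39 higher and 9 lower. In 51 genes (0.359%) the 12 low-dose arrays did not overlap the 5 at 0 mg/kg, with 45 above (0.317%) and 6 below (0.0422%). Of all genes, 56.2% had a pooled difference above 0. Changes were small: 23 genes (0.162%) differed at least 1.5-fold, and the median over all genes was 0.02. The array medians moved with the groups, at 6.51, 6.58 and 6.62 (lowest, median and highest) in low-dose livers and 6.47, 6.54 and 6.56 at 0 mg/kg (difference 0.05, exact two-sided permutation p = 0.0246). The excess of higher genes depended on scaling and level. Of the 7109 brighter genes 13.4% were higher and 1.32% lower at an unadjusted p under 0.05, and of the 7108 dimmer genes 4.01% and 6.53%. Higher genes made up 69.0% of those at an unadjusted p under 0.05 as deposited, 55.4% after quantile normalization of the liver arrays (775 higher and 624 lower), and 33.5% after each array was centred on its median (534 and 1060). The number of genes without overlap was 18 and 25 under these scalings. Gstt3 was the single called gene under both of them.

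Gene by gene, the 3 low doses were not told apart from each other. The F test among 1, 10 and 100 mg/kg compares no control mean, but the controls and higher doses enter its estimate of spread. That test called 0 of 14217 genes with limma. Its smallest adjusted p was 0.999919, and 458 genes (3.22%) had an unadjusted p under 0.05. Pairs of doses gave 497 genes (3.50%) for 10 minus 1 mg/kg, 542 (3.81%) for 100 minus 1 mg/kg and 510 (3.59%) for 100 minus 10 mg/kg at an unadjusted p under 0.05, and 0 called in each. The median 95% interval of 10 minus 1 mg/kg, unadjusted for the number of genes, reached 0.25 log2 units to either side. Differences between doses smaller than that were mostly not detectable, and larger ones could also go uncalled. For 100 minus 10 mg/kg, Tnfaip3 differed by 0.75 and Ros1 by -0.75, both with a limma adjusted p of 0.999. The missing calls do not show that the doses act alike.

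**Figure D3:**
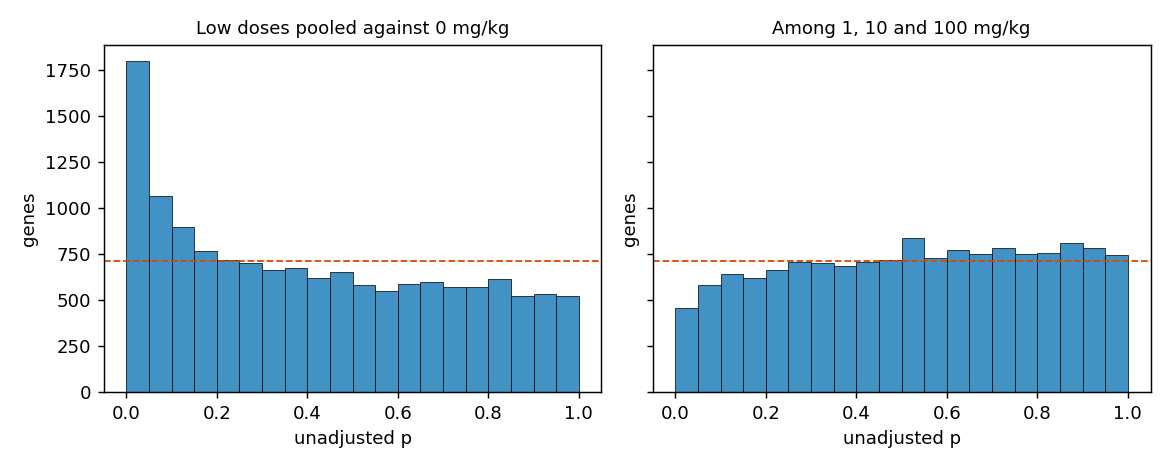
Number of genes (vertical axis) by unadjusted p in 20 bins (horizontal axis) for the low doses pooled against 0 mg/kg (left) and for the F test among 1, 10 and 100 mg/kg (right). The dashed line is the mean of 710.9 genes per bin. The first bin holds 1798 genes on the left and 458 on the right.

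Relative to 0 mg/kg, 8233 genes (57.9%) had the same sign at 1, 10 and 100 mg/kg, 4935 higher (34.7%) and 3298 lower (23.2%) at each of them. The 3 differences share the 5 control arrays, so a control mean that is high or low by chance moves them together. With 4 arrays per dose, 5 shared controls and normal noise of equal size, 47.0% of genes would have 1 sign throughout if no gene differed. The genes counted next were picked by the mean of the same differences, so that a shared sign is largely built in and adds no evidence that the doses act alike. Among the 1798 genes with a pooled unadjusted p under 0.05, 1789 had the same sign at each dose. Of these 1798, 291 also had an unadjusted p under 0.05 at each dose, 555 at 2 doses, 806 at 1 dose and 146 at none. The F test among doses gave an unadjusted p under 0.05 in 68 of the 1798 (3.78%). All 48 genes at a pooled adjusted p under 0.1 had the same sign throughout, and 47 had an unadjusted p under 0.05 at each dose. Of 41 genes with a pooled difference of at least 0.5, 39 had the same sign at each dose.

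Taken singly, the doses called Gstt3 or nothing. Livers at 1 mg/kg gave 0 called genes with limma and 1344 (9.45%) at an unadjusted p under 0.05. Those at 10 mg/kg gave 1, Gstt3, and 1311 (9.22%), and those at 100 mg/kg gave 0 and 1305 (9.18%). The 5 genes with the smallest p among the doses were Gzmb, Nrtn, Tnfaip3, Ros1 and Tiam1, with unadjusted F test p of 0.000714 to 0.00116. Gzmb, a protease of cytotoxic lymphocytes, read 4.05, 4.25, 4.25 and 4.22 at 1 mg/kg, 3.94, 4.18, 4.25 and 4.14 at 10 mg/kg, and 4.15, 4.94, 4.75 and 5.02 at 100 mg/kg. The other 3 livers at 100 mg/kg were high, and the first overlapped the lower doses. Without that replicate, 1 gene, Gzmb, was called among doses (limma adjusted p = 0.0253). Gzmb was picked by its F test p, and the array left out held its lowest reading at 100 mg/kg. A smaller p is therefore largely built in, and these readings are dim. Tnfaip3, an inhibitor of NF-kappaB signalling, averaged 6.57 ± 0.20, 6.32 ± 0.30 and 7.08 ± 0.36 at 1, 10 and 100 mg/kg (SD, n = 4 each). Of 14 lymphocyte markers 1 had an unadjusted p under 0.05 in the pooled comparison, and their mean level was 4.73 to 5.06 in low-dose livers and 4.81 to 4.85 at 0 mg/kg.

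Gene lists by role were read by counts at an unadjusted p under 0.05, set against 8.72% of all genes higher and 3.92% lower, and by the median difference, set against 0.02 for all genes. The 7109 brighter genes had 13.4% higher and 1.32% lower, with a median of 0.05. That is the nearer reference for lists of bright genes, such as the proteasome, respiratory chain and cholesterol synthesis. After quantile normalization 5.45% of all genes were higher and 4.39% lower, and after centring 3.76% and 7.46%, with a median of -0.03 after centring. Of 5 measured genes of the theta glutathione transferase, Mif and Ddt cluster, 4 were higher and the median was 0.22. This list was drawn up with the result of Gstt3 known. Besides Gstt3 and Mif, Ddt, a tautomerase related to Mif, differed by 0.17 (adjusted p = 0.112) and Gstt1 by 0.22 (adjusted p = 0.236), while Gstt2 stood at 0.02. These genes neighbour one another on chromosome 20 in the order Mif, Gstt2, Gstt1, Gstt3, Ddt in RefSeq GRCr8. Of the 20 measured genes nearest to Gstt3, 10 on each side, a window chosen after the values were seen, 6 were higher and 0 lower, with a median of 0.04. The 6 were Chchd10, Smarcb1, Mif, Gstt1, Ddt and Susd2.

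Of 26 NRF2 targets, 6 were higher and 0 lower (5 and 2 after centring or quantile normalization), with a median of 0.11. None was called in the main fit. Gsr read 7.77, 8.04 and 8.19 (lowest, median and highest) in low-dose livers and 7.55, 7.68, 7.60, 7.39 and 7.72 at 0 mg/kg, without overlap. Its difference was 0.43 (SE 0.10, limma adjusted p = 0.0816). Tkt, transketolase of the pentose phosphate pathway, differed by 0.26 (adjusted p = 0.153). Gsta3, whose promoter is given above, read 6.996, 7.66 and 8.62 in low-dose livers and 5.50, 7.35, 6.37, 7.12 and 7.53 at 0 mg/kg. Its groups overlapped and its controls spread widely (SD 0.84), and the difference of 0.79 had an adjusted p of 0.197. Ugdh, which makes UDP-glucuronic acid, and Taldo1, transaldolase, made up the 6 with differences of 0.20 and 0.11.

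Of 25 proteasome subunits, the machine that degrades tagged proteins, 17 were higher and 0 lower, and all 25 differences were above 0. The differences were small, with a median of 0.13 and a highest value of 0.20, and no subunit was called in the main fit. The count of 17 became 12 after quantile normalization and 8 after centring, with 24 of 25 above 0 in both. Psmb5, a catalytic subunit, averaged 11.16 ± 0.06 (SD, n = 12) in low-dose livers and 10.99 ± 0.08 (SD, n = 5) at 0 mg/kg (limma adjusted p = 0.118). Psmb7 differed by 0.20, Psmc3 by 0.16 and Psmb4 by 0.14.

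Cholesterol synthesis had 4 of 20 genes higher and 0 lower (4 and 0 after quantile normalization, 3 and 0 after centring), with a median of 0.20. Pmvk and Mvk, kinases of the mevalonate pathway, differed by 0.40 and 0.24, Tm7sf2, a sterol reductase, by 0.29, and Fdft1, squalene synthase, by 0.20 (limma adjusted p = 0.181 to 0.324). Of 25 respiratory chain genes 7 were higher and 1 lower (5 and 1 after quantile normalization, 2 and 1 after centring), led by Atp5po of ATP synthase at 0.20 (adjusted p = 0.120). Of 14 genes of iron and heme metabolism 5 were higher and 0 lower as deposited, 3 and 3 after quantile normalization and 2 and 3 after centring, with medians of 0.08, 0.03 and 0.03. Blvrb, biliverdin reductase B, differed by 0.30 (adjusted p = 0.0816), and Fech, ferrochelatase, by 0.17. Of 11 heat shock genes 3 were higher as deposited, 2 after quantile normalization and 3 after centring. The 3 as deposited included Hspe1 and Hspd1, the mitochondrial chaperonins, at 0.27 and 0.20 (adjusted p = 0.0816 and 0.153).

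Of 16 interferon response genes 3 were higher and 0 lower as deposited, 1 and 0 after quantile normalization and 1 and 1 after centring. The list medians were 0.02, 0.07 and 0.24 at 1, 10 and 100 mg/kg. Mx1, an antiviral GTPase, differed from 0 mg/kg by 0.30, 0.20 and 0.68 at those doses (pooled 0.40, limma adjusted p = 0.296). Gluconeogenesis and fasting genes had 0 of 15 higher and 2 lower, Slc2a2, the hepatic glucose transporter, at -0.18 and Pc, pyruvate carboxylase, at -0.19 (adjusted p = 0.244 and 0.274). Targets of the drug-sensing receptors CAR and PXR had 2 of 19 higher, Gsta3 and Cyp3a23-3a1 (0.32, adjusted p = 0.216). PPAR alpha targets, a peroxisomal and lipid-burning set, had 0 of 28 in either direction, and 33 cell cycle genes had 1 higher.

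**Figure D4:**
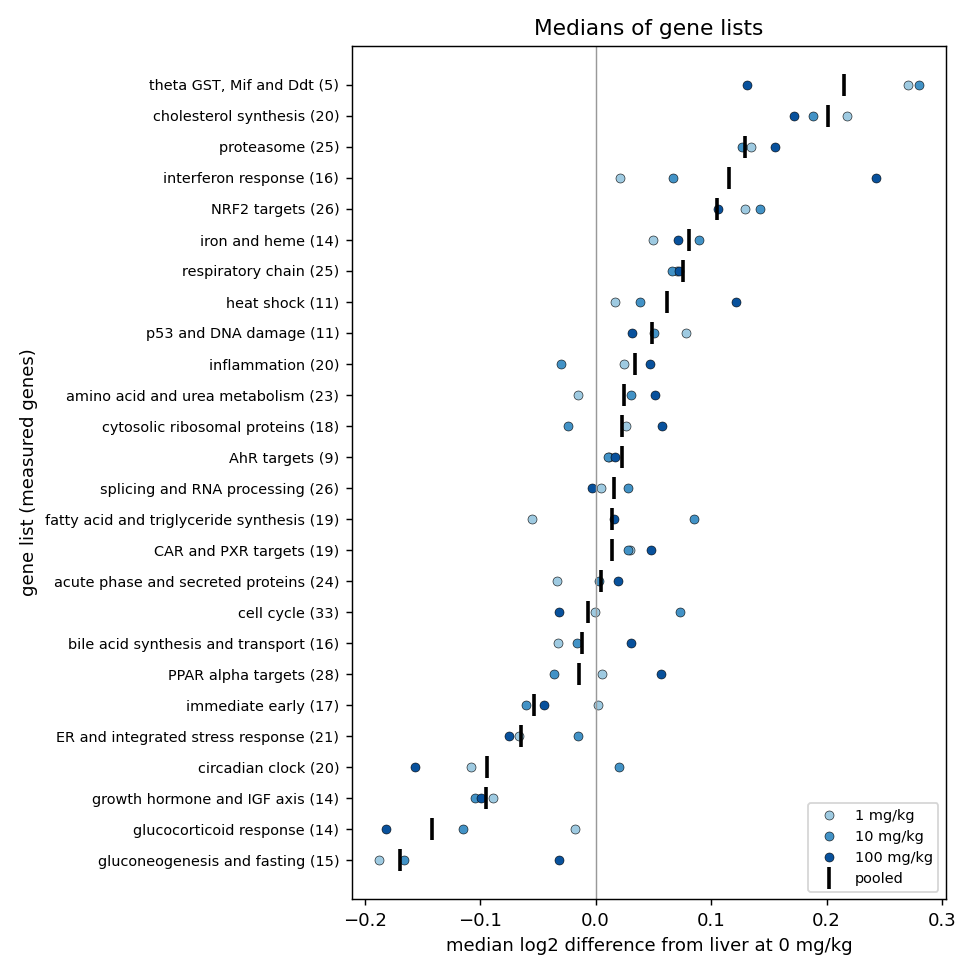
Median log2 difference from liver at 0 mg/kg (horizontal axis) over the measured genes of each pathway list (vertical axis, number of genes in parentheses). Circles are the 3 doses and vertical ticks the pooled low doses. The theta glutathione transferase list has the highest pooled median at 0.22 and gluconeogenesis the lowest at -0.17, and the interferon list has medians of 0.02, 0.07 and 0.24 by dose.

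Clock genes held the largest single difference in the 37 lists examined, and their levels varied widely among control livers. The circadian clock runs in hepatocytes as a loop: Bmal1 with Clock or Npas2 drives the repressors Per, Cry and Nr1d1 and the output factor Dbp, and Nr1d1 represses Bmal1 in turn. Of 20 clock genes 5 were higher and 4 lower at an unadjusted p under 0.05, and none was called. Bmal1 was higher by 0.55, at 7.16, 7.63 and 7.89 in low-dose livers and 7.16, 7.48, 7.65, 6.79 and 5.96 at 0 mg/kg (limma adjusted p = 0.221). Nr1d1 was lower, at 3.96, 5.66 and 6.96 in low-dose livers and 7.001, 6.51, 5.29, 7.17 and 7.54 at 0 mg/kg (difference -1.11, adjusted p = 0.310). Both genes overlapped between groups, and in both the control replicates 2 and 3 lay within the range of the low-dose arrays and control replicate 5 lay farthest from it.

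Dbp stood at -1.02 (SE 0.40), with a control SD of 1.43 against 0.58 at the low doses, and its controls read 5.73, 5.38, 4.42, 6.73 and 8.17. Cry1 was higher by 0.72, Npas2 by 0.43, Nfil3 by 0.38 and Rora by 0.33, and Nr1d2 and Per3 stood at -0.91 and -0.41 (limma adjusted p = 0.190 to 0.305). The differences of Bmal1 at 1, 10 and 100 mg/kg were 0.57, 0.50 and 0.58, and those of Nr1d1 were -1.22, -1.14 and -0.99. The labels state no hour of killing, and the part of clock phase in the other differences was not tested beyond the covariate. With that covariate 1322 genes had an unadjusted p under 0.05, and the pooled comparison called 0 genes. Bmal1 and Nr1d1 themselves differed on average between the groups, so the covariate may remove part of an effect of dose. Clock phase and dose cannot be told apart with it. Nfil3, Dbp, Per3, Rora and Nr1d1 are named in addition to the 4 of the list with the smallest p, after their values were seen.

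**Figure D5:**
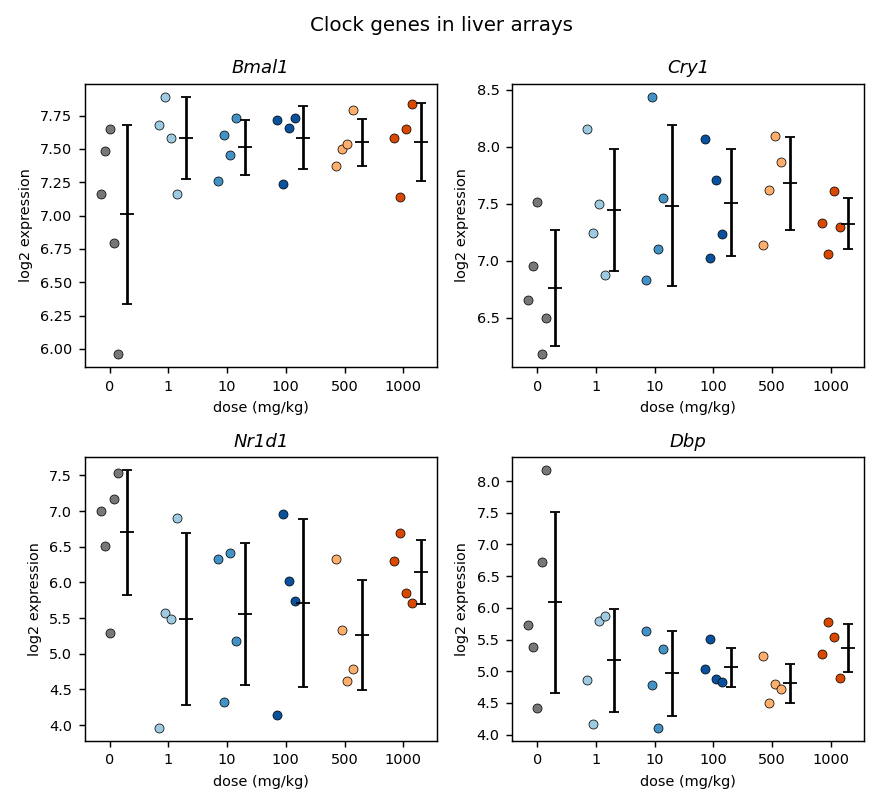
Log2 expression (vertical axis) of the clock genes Bmal1, Cry1, Nr1d1 and Dbp in each liver array by dose in mg/kg (horizontal axis). Points are arrays and bars the mean with SD. The 5 controls spread from 5.96 to 7.65 in Bmal1 and from 4.42 to 8.17 in Dbp, and the low-dose arrays overlap them in all 4 genes.

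Markers of other cell types were read in the same way. The mean of 10 macrophage markers was 8.82 to 9.27 in low-dose livers and 8.97 to 9.25 at 0 mg/kg, and 0 of 10 had an unadjusted p under 0.05. Of 7 cholangiocyte, 10 endothelial and 12 stellate cell and fibroblast markers, 1 of each was higher at that threshold, and of 5 neutrophil and 6 erythroid markers 0. Lower markers appeared under the other scalings: 2 endothelial and 1 stellate cell and fibroblast marker under both, and 2 macrophage and 1 neutrophil marker after centring, where 7.46% of all genes were lower.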

How the data were processed

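Total RNA of liver was hybridized to Affymetrix Rat Genome 230 2.0 arrays, as the labels' protocols state. Each probe set has a log2 value deposited by the submitters, whose processing notes name RMA. The version of RMA, and whether the organs were normalized together, are not given in the sources used here. RMA equalizes array distributions, which can hide a shift shared by most genes. Array signal carries no count of reads, so no depth applies.

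Of 31099 probe sets, 20826 had 1 gene symbol in the platform annotation. Each gene was represented by its probe set with the highest mean over 49 arrays, which gave 14217 genes. All 25 liver arrays were fitted with limma 3.58.1 in R 4.3.3, with 1 mean per dose. The pooled contrast is the mean of the doses 1, 10 and 100 mg/kg minus 0 mg/kg. A moderated F test compared the means of the low doses with one another, with the spread estimated from all 25 liver arrays. P-values were adjusted by Benjamini-Hochberg over all genes. Groups came from the sample titles. The fit was checked on simulated data.

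Genes named are all called genes, the 10 smallest p each way, the 5 smallest among doses and up to 4 per list described, passing over symbols that start with LOC, RGD, MGC or AABR. Gstt2, Taldo1, Ugdh and genes marked as such were named after their values were seen. Comparison, lists and rules were chosen with earlier results of these data known. Alternatives covered the arrays fitted, pooling, probe sets per gene, a level filter, scaling, the variance model, array weights, a replicate block and left-out doses and arrays. A further 3 were added after the data were seen: a clock covariate, the spread without 1 array at 500 mg/kg, and the comparison with kidney. Promoters are from RefSeq GRCr8.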

Additional observations from a re-analysis of the deposited data

Results flagged for a closer look

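Bmal1 in replicate 2 at 100 mg/kg read 7.23, against 7.65 to 7.73 in the other 3 livers of that dose. Its gap to the nearest was 0.85 of the group's range, above the 95% critical value of Dixon's test for 4 samples. It was the single value so far from its group among 144 groups of 36 genes tested, and chance alone marks about 1 in 20 groups.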

How the results depend on the processing

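The pooled comparison called 1 gene. It called 0 with the 17 arrays alone (Gstt3 0.86, limma adjusted p = 0.0546), 0 without the 10 mg/kg group (Gstt3 0.77), and 0 with the clock covariate (Gstt3 0.74). It called 7 with the 12 low-dose arrays as 1 group, 6 with the mean of all probe sets, 72 of 7109 genes at or above the median level (70 higher, 2 lower), 16 with a variance trend, and 4 without the 100 mg/kg group. Leaving out 1 array gave 1 to 7: the third control left out gave 4, the fourth control 3, the second liver at 100 mg/kg 2 and the third liver at 100 mg/kg 7. The count at 10 mg/kg was 0 with 17 arrays and the covariate, and 0 to 2 with 1 array left out. Among the low doses 0 to 1 genes were called. Genes without overlap numbered 18 and 25 under quantile normalization and centring, and 54 to 122 with 1 array left out. Genes of the same sign numbered 4367 of the 7109 brighter genes, and 7736 to 8879 with 1 array left out. Except for the smaller sets of genes and arrays these settings build in, the cause was not tested. Replicate numbers did not pair the arrays: in 24 same-numbered pairs the deviations correlated at -0.22 to 0.17, and 2 of 17 arrays correlated best with their own number. With the replicate block the pooled count was 0 (Gstt3 0.85, adjusted p = 0.0949) and the count at 10 mg/kg 0. No difference of the 20 lead genes changed sign in any setting, which their choice by the smallest p largely builds in. The shared spread without 1 array at 500 mg/kg left the pooled count at 1.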
